A study of Mus musculus with 4 samples.

Results

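The genes described here lie on mouse chromosome 2 in the stretch that runs from Slc5a12 to AA467197. They are 59 named genes, taken by symbol from the platform annotation, of 18193 genes that the array measured under a symbol of their own. Of the 59, 56 had at least 1 probe set annotated to that gene alone, 123 probe sets in all. Sord, Ell3 and Spg11 had none and have no value here, and 7 probe sets that members share with another symbol were not used. The stretch was put forward because many of its genes differed between the genotypes on these same arrays, with Tmem87a, Spata5l1 and Vps39 as its leading genes. The differences of its genes are therefore a description with no test, and nothing is supported with them.

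The arrays profiled mouse Paneth cells, cut out by laser capture; these cells sit at the bottom of small intestinal crypts and secrete antimicrobial proteins. The samples were 2 from Atg16 hypomorph mice, which carry an allele of reduced function in an autophagy gene, and 2 from wildtype mice. All 4 are labelled as mixed C57BL/6 and 129ola in strain. The sources used here do not give the construct of the allele, the age or sex of the mice, the number of animals behind each sample or the genotype of any sample on chromosome 2. Whether the replicates are separate animals is not stated, so the spread between them may be technical.

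Chromosomes of a mixed stock are inherited in long blocks, so that neighbouring genes in an animal usually come from the same founder strain, and inbred strains differ in the sequence and the expression of many genes. Short array probes also bind less well to a transcript that differs from them by a base, which can lower a reading without a change in the amount of RNA. Probe sets of the same gene that sit on different parts of its transcripts can therefore give different values. Whether the samples carried different strain alleles in this stretch was not tested, since no sequence of these mice was used.

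Values are the deposited linear intensities, and a level of a probe set cannot be set against that of another. Differences are hypomorph minus wildtype of mean log2(intensity + 32), a scale that understates the change of dim genes, and are given with the standard error (SE) of a limma fit. A probe set was tested if its mean log2 value reached the median of the array, 6.32, which is an intensity of 47.7. A probe set was called at an adjusted p under 0.05 over all 22519 probe sets tested. Markers of the labelled cell type were present: all 10 Paneth cell markers passed the filter, with summed intensities of 67285 and 73214 in the hypomorph samples and 71156 and 72880 in the wildtype samples. Of these markers 2 were called higher in hypomorph, Reg3a (0.89) and Reg3g (0.26), and 0 lower. Atg16l1 read 966 and 995 in hypomorph, against 1335 and 1183 in wildtype (difference -0.35, SE 0.10), and was not called (limma, adjusted p = 0.102). Summed fat cell markers were 28213 to 28644 in hypomorph and 9984 to 10044 in wildtype, with 9 of 10 tested markers called higher, and Cidea, Lipe, Retn and Slc2a4 stayed under the filter. Fibroblast markers summed to 26629 to 28044 in hypomorph and 23503 to 23696 in wildtype, with 4 of 8 tested called higher. Lymphocyte markers summed to 2368 to 2502 in hypomorph and 1426 to 1546 in wildtype, with 2 of 6 called higher, the granzyme genes Gzma and Gzmb. The other tested ones were not called and did not rise as a set. Cd2 (-0.32) and Cd79a (-0.49) were lower in hypomorph, and Cd3g (0.04) and Cd8a (0.08) hardly differed, while Cd3e stayed under the filter. No tested marker of these lists was called lower, and their part in the values below was not tested. The female-expressed RNA Xist read 4414 and 4510 in hypomorph, against 18 and 25.6 in wildtype. By this gene the hypomorph samples read as female and the wildtype samples as male. Sex then goes with genotype in every value below, so the 2 cannot be told apart, and the part of sex was not tested.

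Of the 123 probe sets, 73 from 46 genes were bright enough to test, and 22 from 19 genes were called, 9 higher and 13 lower in hypomorph. Over the whole array 3.71% of tested probe sets were called, 2.04% higher and 1.67% lower. That balance of directions turned without hypomorph replicate 2, which gave 706 higher and 942 lower in place of 459 and 377. The values that put the stretch forward are these same ones, so nothing is read from that contrast. The differences of called probe sets ran from 0.47 to 3.18 where hypomorph was higher and from -3.50 to -0.49 where it was lower. The 51 tested probe sets that were not called lay between -0.73 and 0.45, and the 50 untested ones between -0.89 and 0.83. Among the called probe sets 7 had a group mean under the filter level and passed through the other group, so they had to differ; these were both of Slc5a12, those of Tmem87a and Spata5l1, and 1 each of Haus2, Tubgcp4 and Trp53bp1. The arrays of the groups did not overlap in 49 of the 73, where 51.8% of all tested probe sets did not overlap. All 22 called ones were among the 49, but calls favour groups that are apart.

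**Figure D1:**
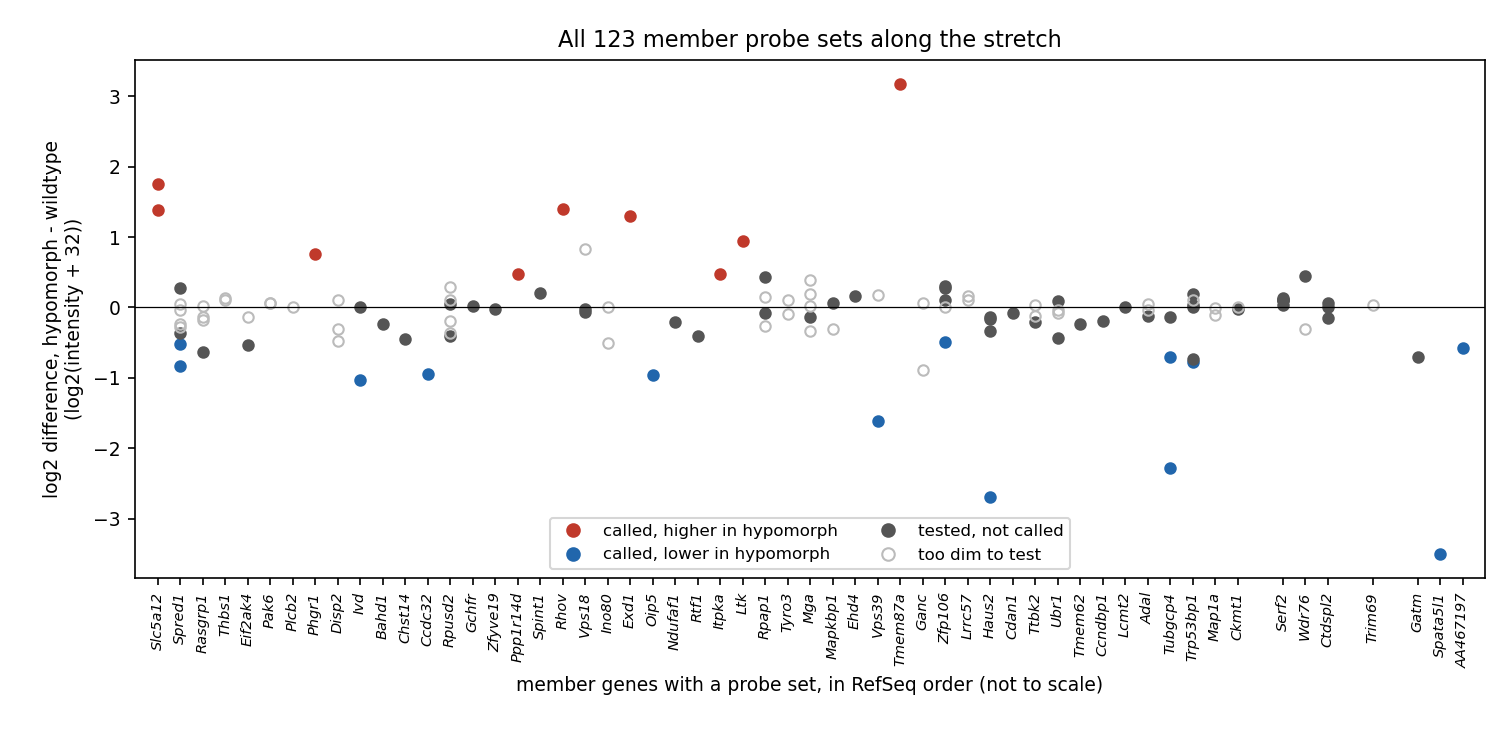
Log2 difference (hypomorph minus wildtype, log2(intensity + 32)) of all 123 member probe sets, with the genes in RefSeq order along the x axis. Colour marks called probe sets and open points those too dim to test; called differences above and below 0 both occur along the stretch, from 3.18 at Tmem87a to -3.50 at Spata5l1.

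The largest differences fell on 4 genes, Tmem87a, Haus2, Tubgcp4 and Spata5l1, each with a probe set that differed by more than 2 on the log2 scale. Over the whole array 41 probe sets did so, 0.182% of those tested. The 4 member probe sets passed the filter only through the group where they were high, so they had to differ. Nothing is read from that share. The letters just upstream of these 4 genes are shown because each gene held a probe set that differed by more than 2. Other tested probe sets of Haus2 and Tubgcp4 differed less, the least by -0.13 in each gene. They are the 250 bases before the start of each gene in RefSeq on GRCm38.p6, 5′ to 3′ on the gene's strand; capitals mark CCGCCC, a core of binding sites for Sp-family factors, and Haus2 has a further window not shown.
Tmem87a (chr2:120404117-120404366, minus strand): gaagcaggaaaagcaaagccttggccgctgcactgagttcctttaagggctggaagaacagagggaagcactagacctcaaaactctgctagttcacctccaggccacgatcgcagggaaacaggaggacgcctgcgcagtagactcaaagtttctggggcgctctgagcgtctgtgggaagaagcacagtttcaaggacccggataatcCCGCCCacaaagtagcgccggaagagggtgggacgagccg
Haus2 (chr2:120609132-120609381, plus strand): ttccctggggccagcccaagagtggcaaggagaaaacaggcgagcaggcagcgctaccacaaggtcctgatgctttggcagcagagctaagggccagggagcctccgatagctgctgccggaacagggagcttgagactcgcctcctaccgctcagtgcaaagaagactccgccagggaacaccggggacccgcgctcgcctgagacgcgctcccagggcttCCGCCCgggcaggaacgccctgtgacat
Tubgcp4 (chr2:121170918-121171167, plus strand): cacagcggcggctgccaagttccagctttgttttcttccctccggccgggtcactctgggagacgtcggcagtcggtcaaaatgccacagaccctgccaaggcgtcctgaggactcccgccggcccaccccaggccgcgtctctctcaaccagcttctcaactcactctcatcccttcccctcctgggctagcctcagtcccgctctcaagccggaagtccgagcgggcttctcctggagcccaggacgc
Spata5l1 (chr2:122630375-122630624, plus strand): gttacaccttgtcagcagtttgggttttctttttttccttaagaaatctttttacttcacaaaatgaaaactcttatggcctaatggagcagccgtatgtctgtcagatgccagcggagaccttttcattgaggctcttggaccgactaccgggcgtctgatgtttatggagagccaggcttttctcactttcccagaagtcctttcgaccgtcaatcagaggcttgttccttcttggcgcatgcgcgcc
The CCGCCC of Tmem87a begins 40 bases before the start and that of Haus2 28 bases before it, and these letters are not in the windows shown for Tubgcp4 and Spata5l1. RefSeq held promoter windows, which reach from 250 bases before a start into the transcript, for 54 of the 59 members, 64 windows in all. Read on both strands, CCGCCC was in 67.2% of these windows and in 35.7% of all 32851 promoter windows, CACGTG in 4.69% against 7.15%, and TATAAA in 4.69% against 13.6%. The windows of members and of all genes were not matched for base composition or expression, so nothing is read from these shares. The sequences are those of the reference strain and not of these mice.

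Membrane trafficking genes held the largest positive difference of the stretch and another of its largest negative ones. Tmem87a, which encodes a membrane protein of the Golgi, read 359 and 290 in hypomorph, against 6.81 and 7.3 in wildtype, a difference of 3.18 (SE 0.17). The wildtype values lay far under the filter level, on the only probe set of the gene, and its size ranked 5 of all tested probe sets. Vps39 encodes a subunit of the HOPS complex, which tethers lysosomes to late endosomes and autophagosomes. It read 447 and 585 in hypomorph and 1673 and 1583 in wildtype (difference -1.61, SE 0.13), while its other probe set was too dim to test. Vps18, the other HOPS subunit of the stretch, read 139 and 127 in hypomorph, against 126 and 156 in wildtype on its brightest probe set (difference -0.06, SE 0.17), and was not called. The groups overlapped on both tested probe sets of Vps18, the other of which differed by -0.02 (SE 0.24). On a dim, untested one Vps18 read 50 and 79.7 in hypomorph, against 22.4 and 21.2 in wildtype (0.83). The groups also overlapped for Zfyve19, a FYVE-domain protein that read 754 and 663 in hypomorph and 719 and 712 in wildtype (-0.02, SE 0.12). Ehd4, an endosomal recycling ATPase, differed by 0.17 (SE 0.17) and was not called. Of the 5 tested genes of this group 1 was called higher and 1 lower, and their median difference was -0.02, against -0.024 over all 11577 tested genes. Over all tested genes 2.53% were called higher and 1.70% lower. The stretch was chosen from this contrast, so counts by role only describe the listed genes.

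**Figure D2:**
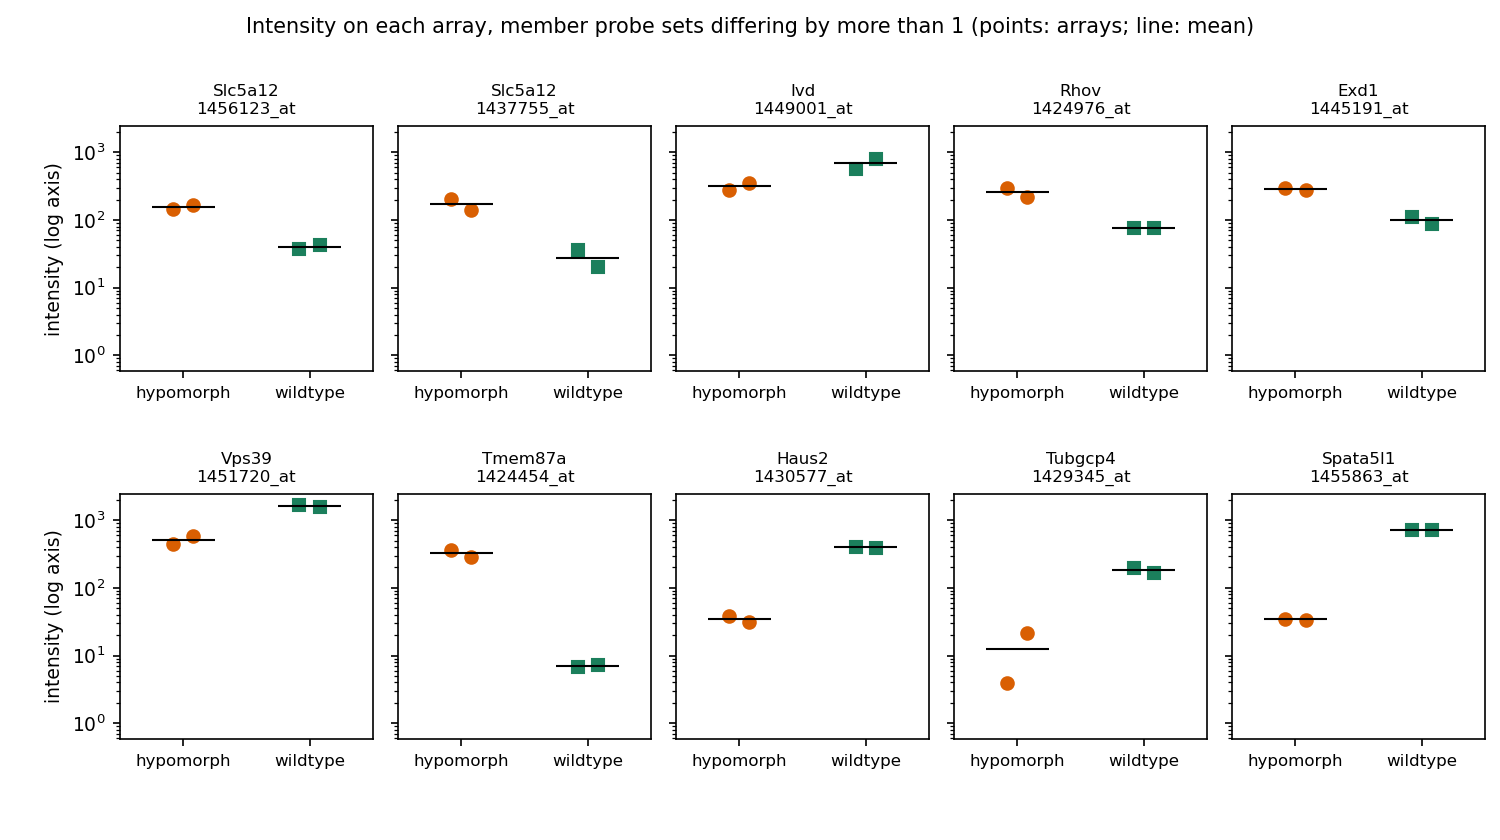
Intensity (log axis) on each of the 2 hypomorph and 2 wildtype arrays for the 10 member probe sets whose difference exceeded 1; points are arrays and lines are means. The groups are apart in every panel, with hypomorph above wildtype for Slc5a12, Rhov, Exd1 and Tmem87a and below it for Ivd, Vps39, Haus2, Tubgcp4 and Spata5l1.

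Spata5l1, an AAA-type ATPase whose human counterpart acts in ribosome maturation, had the largest negative difference of the stretch. It read 35.2 and 33.6 in hypomorph, against 718 and 724 in wildtype, a difference of -3.50 (SE 0.15) on its only probe set. Both hypomorph arrays lay below the filter level, and the arrays of each group lay close together. Exd1, known for a role in the piRNA pathway of the germ line, read 300 and 275 in hypomorph and 110 and 86.4 in wildtype (difference 1.30, SE 0.16). Ccdc32, a coiled-coil protein, read 165 and 214 in hypomorph and 377 and 406 in wildtype (-0.95, SE 0.16). These were the only called genes among the 9 tested members that act in RNA modification, proteolysis or other processes. Over all tested genes 4.23% were called. The brightest 2 of the 9 were not called. Ubr1, a ubiquitin ligase that recognises destabilising N-terminal residues, read 1911 and 2050 in hypomorph, against 1760 and 1952 in wildtype (0.09, SE 0.09). Serf2 was the brightest member and read 6613 and 7007 in hypomorph and 6243 and 6419 in wildtype (0.10, SE 0.06), and its 5 probe sets differed by 0.04 to 0.14.

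Genes of the spindle, centrosome and cytoskeleton had the lowest median of the role groups, -0.46 over 4 tested genes. Of these 2 were called lower and 0 higher by their brightest probe set, where 1.70% and 2.53% of all tested genes were. Oip5, a factor that helps to load the centromeric histone, read 58.9 and 97.6 in hypomorph and 184 and 176 in wildtype (difference -0.96, SE 0.20). Tubgcp4, a subunit of the gamma-tubulin ring complex that nucleates microtubules, read 233 and 276 in hypomorph, against 412 and 453 in wildtype on its brightest probe set (-0.70, SE 0.15). Its probe sets did not tell the same story. On 1429345_at it read 3.96 and 21.4 in hypomorph and 194 and 168 in wildtype (-2.28, SE 0.21), and on 1433660_at it read 288 and 264 in hypomorph and 313 and 299 in wildtype (-0.13, SE 0.14). Haus2, a subunit of the augmin complex that branches spindle microtubules, showed a wider gap. Its probe set 1430577_at read 38.7 and 31.2 in hypomorph, against 405 and 393 in wildtype (-2.69, SE 0.16). Its brightest probe set read 395 and 413 in hypomorph and 457 and 432 in wildtype (-0.13, SE 0.13) and was not called, and the remaining 2 differed by -0.33 and -0.16. Ttbk2, a kinase needed to build cilia, was not called (-0.21, SE 0.20), and both probe sets of the microtubule protein gene Map1a were too dim to test.

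Such disagreement among probe sets of the same gene was seen for several members. Of 13 members with several tested probe sets, the differences of 4 (Haus2, Tubgcp4, Spred1 and Ivd) spanned more than 1, which is 30.8%, against 1.92% of the 4637 such genes on the array. The median span was 0.52 for the members and 0.22 for all genes. This comparison rests on the contrast that chose the stretch, so it is given without a test. The spans of Haus2 and Tubgcp4 also came through a probe set that passed the filter only through wildtype and so had to differ. For 6 pairs of member probe sets the annotation gives the same sequence record, and the gap between their differences had a median of 0.44, against 0.16 over 2475 such pairs of the array. Ivd, the isovaleryl-CoA dehydrogenase of leucine breakdown, had the widest of these gaps, 1.03. It read 1257 and 1401 in hypomorph, against 1217 and 1433 in wildtype on its brightest probe set (0.01, SE 0.11), and 279 and 355 in hypomorph, against 564 and 806 in wildtype on the other (-1.03, SE 0.18). Of the 2 such pairs of Zfp106, a zinc finger protein that binds RNA, 1 had a gap of 0.60 and the other of 0.03. Its brightest probe set read 2614 and 2847 in hypomorph, against 2448 and 2615 in wildtype (0.11, SE 0.08), and the called one read 660 and 656 in hypomorph, against 965 and 917 in wildtype (-0.49, SE 0.11).

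**Figure D3:**
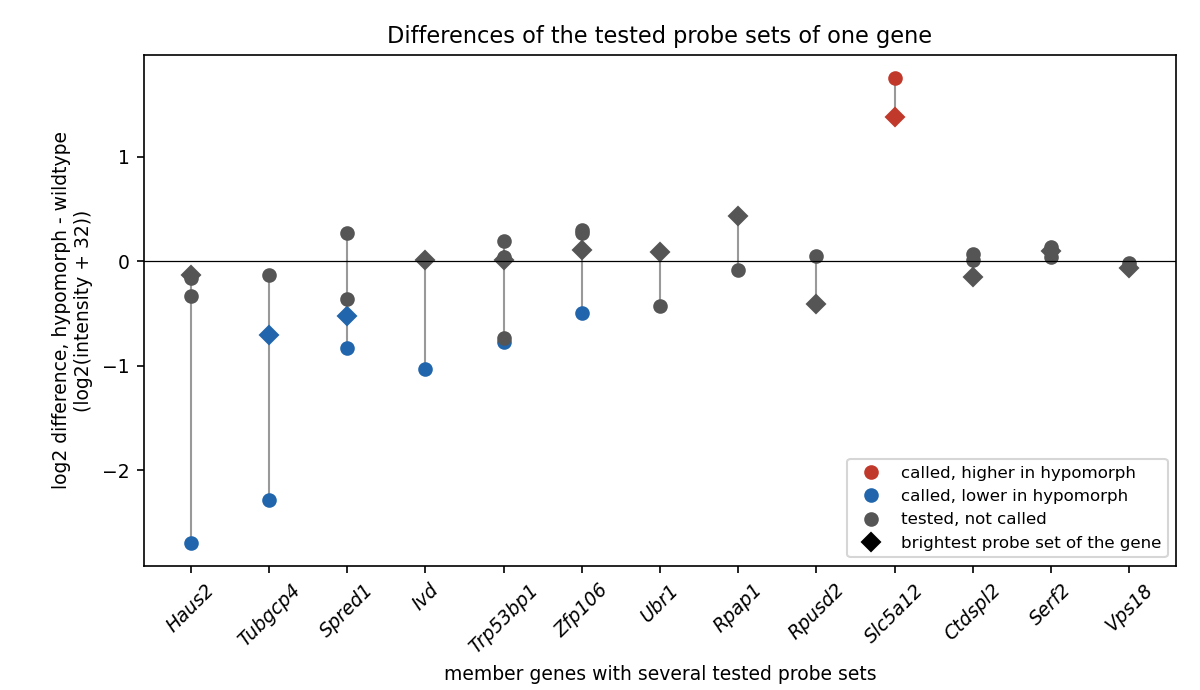
Log2 differences (hypomorph minus wildtype) of each tested probe set of the 13 members with several, ordered by their span; diamonds mark the brightest probe set and colours the calls. Haus2 spans 2.56 and Tubgcp4 2.15, while the 5 probe sets of Serf2 lie within 0.10 of each other.

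Chromatin and transcription genes were the largest group to be tested by probe sets, 19 of 30. None of its 9 tested genes was called by the brightest probe set, where 4.23% of all tested genes were. Trp53bp1, which directs the repair of DNA double-strand breaks, read 4065 and 3797 in hypomorph, against 3952 and 3866 in wildtype (difference 0.01, SE 0.07). Its dim probe set 1457812_at was called, with 35.1 and 37.3 in hypomorph and 74.4 and 94.5 in wildtype (-0.77, SE 0.17). A further probe set built on the same sequence record differed by -0.73 (SE 0.20) and was not called. The Paf1 complex subunit gene Rtf1 (-0.40, SE 0.13), the polymerase assembly factor gene Rpap1 (0.43, SE 0.11), the Max partner gene Mga (-0.13, SE 0.17) and the heterochromatin gene Bahd1 (-0.23, SE 0.17) were not called on their brightest probe sets. Both probe sets of the chromatin remodeller gene Ino80 were too dim to test.

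The group listed as epithelial surface, secretion and transport had the highest median, 0.48 over 4 tested genes. AA467197 was counted in it, though its protein is not known to act at the surface, in secretion or in transport. Slc5a12, the sodium-coupled lactate transporter at the centromeric end, read 144 and 166 in hypomorph, against 37 and 42.2 in wildtype on its brightest probe set (difference 1.38, SE 0.17). The other gave 202 and 139 in hypomorph, against 35.6 and 20.1 in wildtype (1.75, SE 0.21). Both probe sets of this gene were thus apart in the same direction. Phgr1, a histidine- and glycine-rich protein of gut epithelium, read 2206 and 2399 in hypomorph and 1319 and 1371 in wildtype (0.76, SE 0.09). Spint1, an inhibitor of membrane serine proteases, read 4948 and 5246 in hypomorph, against 4360 and 4475 in wildtype (0.20, SE 0.06), and was not called although the arrays did not overlap. AA467197, the far end, was lower, with 303 and 287 in hypomorph and 444 and 462 in wildtype (-0.57, SE 0.13). Enterocyte markers also differed in sum, as fat cell, fibroblast and lymphocyte markers did. Of 11 tested enterocyte markers 6 were called higher and 0 lower. Their summed intensities were 29377 and 30539 in hypomorph, against 21794 and 22208 in wildtype. Their part in these differences was not tested, and in captured tissue more cells of a type and more RNA per cell cannot be told apart.

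Receptor, kinase and signalling genes included 3 called higher and 1 called lower of 7 tested by the brightest probe set, with a median difference of 0.06. Over all tested genes 2.53% were called higher and 1.70% lower. Rhov, a small GTPase, read 293 and 221 in hypomorph, against 77.2 and 76.8 in wildtype (1.40, SE 0.18). Ltk, a receptor tyrosine kinase, read 205 and 225 in hypomorph and 92.9 and 100 in wildtype (0.94, SE 0.16). Ppp1r14d, an inhibitor of protein phosphatase 1, read 1839 and 1830 in hypomorph and 1252 and 1387 in wildtype (0.47, SE 0.09). Against these, Spred1, an inhibitor of Ras signalling, was lower, with 1268 and 1218 in hypomorph and 1947 and 1658 in wildtype on its brightest probe set (-0.52, SE 0.10). The called probe set 1423161_s_at of Spred1 differed by -0.83 (SE 0.15), and a further tested one, 1443652_x_at, by 0.27 (SE 0.21) with overlapping arrays. Eif2ak4, the amino acid sensing kinase GCN2, differed by -0.53 (SE 0.15) and Mapkbp1 by 0.06 (SE 0.17), and neither was called.

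Mitochondrial and metabolic enzymes were called on the brightest probe set for 1 of 8 tested genes, where 4.23% of all tested genes were called. The called enzyme was Itpka, an inositol trisphosphate kinase, which read 1307 and 1391 in hypomorph, against 952 and 968 in wildtype (0.48, SE 0.10). The complex I assembly factor gene Ndufaf1 differed by -0.21 (SE 0.12) and the creatine kinase gene Ckmt1 by -0.02 (SE 0.14), and neither was called. Just inside the threshold over all members lay Trp53bp1 1457812_at (-0.77, SE 0.17) and AA467197 (-0.57, SE 0.13). Just outside it were Gatm, the first enzyme of creatine synthesis (-0.70, SE 0.17), and the Ras activator gene Rasgrp1 (-0.63, SE 0.16).

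**Figure D4:**
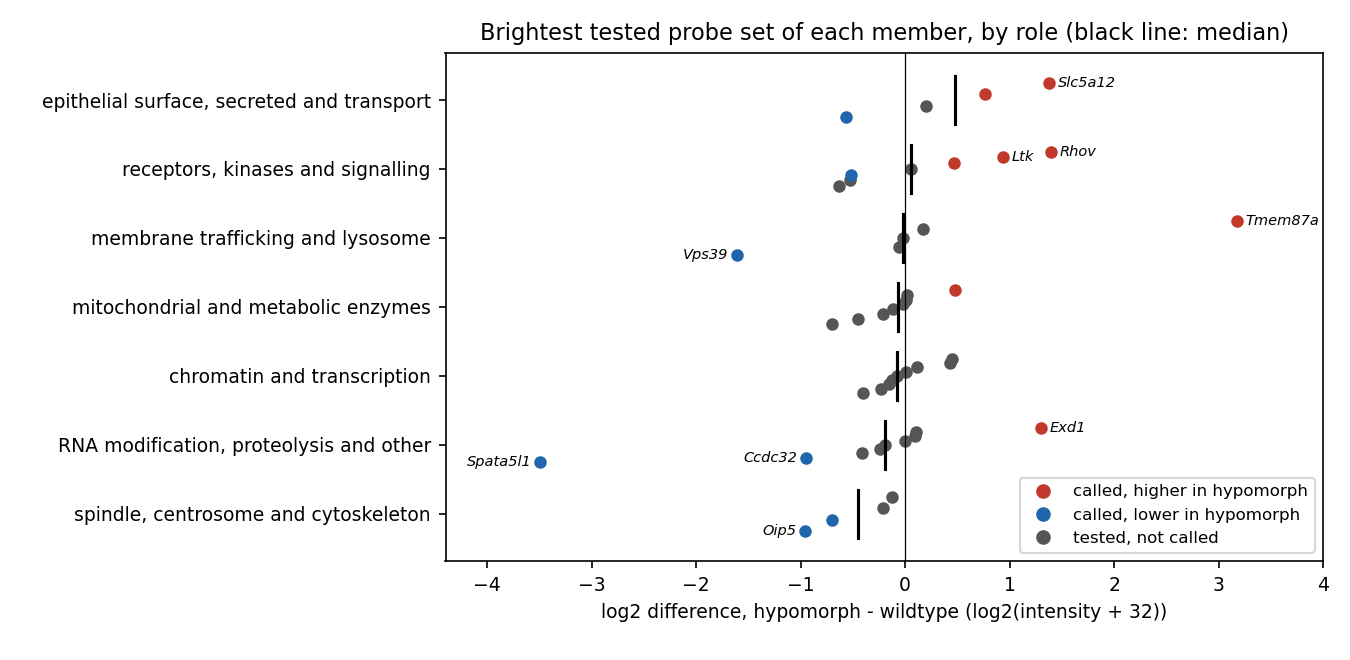
Log2 difference (hypomorph minus wildtype) of the brightest tested probe set of each of the 46 tested members, by role group, with the group median as a black line. Medians lie between -0.46 and 0.48, and the most distant points, Tmem87a and Spata5l1, stand apart from the rest of their groups.

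In all, 15 of the 46 tested members were called by their brightest probe set, 8 higher and 7 lower, where 4.23% of all tested genes were called (2.53% higher, 1.70% lower). Of the other members, 27 had tested probe sets and no call on any of them, and 10 had none bright enough to test (Thbs1, Pak6, Plcb2, Disp2, Ino80, Tyro3, Ganc, Lrrc57, Map1a and Trim69), whose 19 probe sets differed by -0.89 to 0.17. The lowest of these was Ganc, an alpha-glucosidase gene whose locus overlaps that of Tmem87a in RefSeq, and which read 12.9 and 20.8 in hypomorph and 51.5 and 65.9 in wildtype. Haus2 and Lrrc57, which also overlap, start in opposite directions with promoter windows that share up to 264 bases, and Lrrc57 differed by 0.17 on its brightest probe set. The median difference of the 73 tested member probe sets was -0.064, against -0.031 over all tested probe sets, and the median size regardless of sign was 0.273, against 0.157. Among all tested genes the difference nearest in size to that of Tmem87a was 3.06 for Scd1 on chromosome 19, followed by Thrsp, Cyp2e1, Fabp1 and Adipoq on other chromosomes, and that nearest to Spata5l1 was -2.91 for Rgs5 on chromosome 1, followed by Smim10l1, Slc15a2, Ifi202b and BC064078.

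Between the ends of the stretch 40 further genes were tested, of which 4 were called. Chac1, which degrades glutathione, read 1476 and 1761 in hypomorph, against 498 and 545 in wildtype (1.57, SE 0.12). B2m, the light chain of MHC class I, differed by 0.51 (SE 0.06), Duoxa2, the maturation factor of an oxidase, by 0.82 (SE 0.16), and the membrane fusion gene Snap23 by -0.90 (SE 0.19). The calls were unevenly spread. In the gap between Slc5a12 and the next member in RefSeq order, Spred1, which holds 119 RefSeq loci, 0 of 14 tested genes were called, so that Slc5a12 stood alone at its end. The nearest tested genes beyond the ends were not called, Fibin before Slc5a12 (0.61, SE 0.17) and Slc30a4 after AA467197 (-0.11, SE 0.09). Among the 50 tested genes before the stretch 3 were called and among the 50 after it 0, and over the 800 tested genes of the rest of chromosome 2 there were 21. Windows of 50 neighbouring tested genes held a median of 2 called genes over all chromosomes, and the fullest, such as that from Ppp1r14d to Spata5l1, held 14, against at most 10 in any window of another chromosome, on chromosome 3. The difference between the stretch and other regions was not tested, because the stretch was chosen from it.

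**Figure D5:**
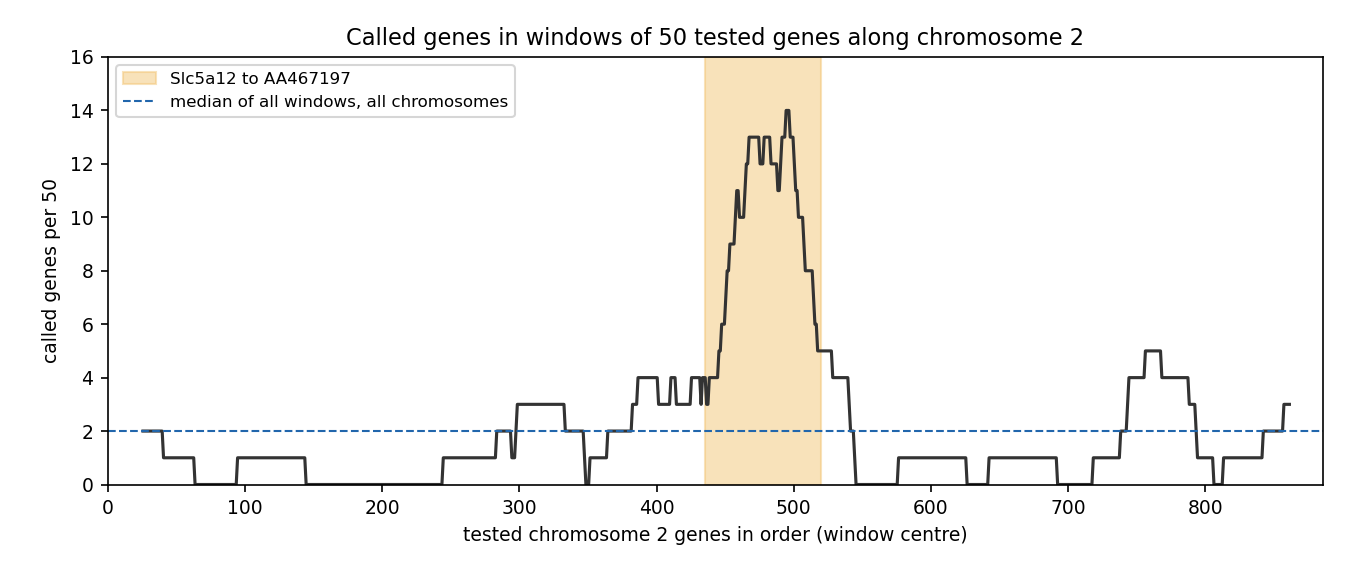
Number of called genes in each window of 50 neighbouring tested genes along chromosome 2, placed at the window's centre, with the stretch shaded and the median of all windows (2) dashed. The count peaks at 14 within the shaded stretch and falls to 0 in windows after it.

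The number of called member probe sets depended on single arrays. Leaving out hypomorph replicate 1 gave 13 and leaving out hypomorph replicate 2 gave 20. Leaving out wildtype replicate 1 gave 11 and leaving out wildtype replicate 2 gave 13. Of the 22, 9 were called each time, namely those of Phgr1, Ccdc32, Rhov, Exd1, Vps39 and Spata5l1, both of Slc5a12 and 1430577_at of Haus2. Tmem87a ranged from 3.04 to 3.32 and was called without each array except hypomorph replicate 1, when its mean was too low to test. Those of Itpka, Zfp106 and AA467197 were lost without each array in turn. The calls of Ltk and the brightest probe set of Spred1 were lost without wildtype replicate 1, that of Ivd without wildtype replicate 2, that of 1429345_at of Tubgcp4 without either wildtype replicate, when it was too dim to test, and that of Ppp1r14d without replicate 1 of either group. The calls of Oip5, Trp53bp1, 1423161_s_at of Spred1 and 1433659_at of Tubgcp4 were lost on leaving out hypomorph replicate 1 or either wildtype replicate. No called difference changed sign, but none could, since the groups did not overlap for any of them.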

How the data were processed

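RNA of laser-captured cells was extracted with a PicoPure kit, amplified and labelled with RiboAmp Plus and hybridised to 1-colour arrays, 1 per sample, per the labels' protocols. The authors deposited 1 linear intensity per probe set and array, from 0.59 to 20106; the sources used here do not say how it was summarised, corrected or scaled. The 2% trimmed means of the arrays lay within 1.02 times of each other, so nothing was normalised again; precision is limited by the number of arrays. No detection calls were used.

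Of 45101 probe sets, 64 controls were left out, and 34945 carried 1 gene symbol in the platform annotation. Gene order and promoter sequences came from RefSeq (GRCm38.p6), since no build is named for these files; order differed slightly from that of the members as listed. Log2(intensity + 32) was fitted in limma 3.58.1 (R 4.3.3; lmFit, eBayes with an intensity trend, group as the only term; 2 residual and 7.81 prior degrees of freedom) on the 22519 probe sets at or above the median, with Benjamini-Hochberg adjustment. The procedure was tested on simulated data. The brightest probe set stood for its gene.

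The members, role groups, markers and lists were chosen with earlier results of these data known. Values by array are given for Tmem87a, Spata5l1, Vps39, both ends, every member with a call (further probe sets of it partly as differences) and the brightest 2 members of each role group. Of other genes, those called between the ends, the nearest beyond them, the 5 nearest in size to Tmem87a and Spata5l1, Atg16l1, Xist and cell markers are named; Xist, Ganc and other uncalled members were added after their values were seen.

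Alternatives were a pseudocount of 1 or 128, other filters, quantile normalisation, median centring, no trend, a robust prior, the replicate block, gene means over probe sets, and leaving out each array.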

Additional observations from a re-analysis of the deposited data

How the results depend on the processing

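Of 301 values of called member differences under the alternatives, 268 moved by less than the spread between replicates, 33 by more, and 0 reversed. The filter, trend, prior and block settings leave a difference as it is, so those values could not move. Leaving out an array could not reverse a sign either, since the groups did not overlap for any called member probe set. These counts are therefore no measure of stability. The member calls numbered 22 as reported, 20 to 23 with other pseudocounts, quantile normalisation, median centring or a robust prior, 10 with no filter on dim probe sets, 9 with the filter at the upper quartile, which leaves fewer probe sets, 13 with no intensity trend, and 11 to 20 with an array left out. Over the whole array the calls numbered 836, and 303, 556 and 323 under the same 3 settings, and 500 to 1648 with an array left out. Other genes between the ends had 4 calls, 2 with no filter and 2 with no trend, and 2 to 6 with an array left out. The rest of chromosome 2 had 21 calls, 6 with no filter, 13 at the upper quartile, 11 with no trend, and 14 to 49 with an array left out. The filter settings change how many probe sets are tested; otherwise the cause was not tested.

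The samples share only a replicate number, and same-numbered arrays deviated together with a correlation of 0.26, 1 value over probe sets since each group has 2 arrays. With the replicate block the calls numbered 3206 over the array (1489 higher and 1717 lower, against 459 and 377), 29 among member probe sets (all 22 among them), 6 among other genes between the ends and 102 on the rest of chromosome 2.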
